A study of Mus musculus with 4 samples.

Results

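MHC class II molecules present peptides from engulfed protein to helper T cells. The 10 genes described here encode the presenting chains (H2-Aa, H2-Ab1 and H2-Eb1), the invariant chain (Cd74), the peptide-loading factors (H2-DMa, H2-DMb1, H2-DMb2, H2-Oa and H2-Ob) and the class II transactivator (Ciita). They were taken by symbol from the 24346 symbols listed in each liver library, and all 10 were listed. They were selected with their difference between the groups below already known, so that difference is given as a description, with no test. Both libraries of the 7KC group were above both libraries of the control group for each of the 10 genes. Over the 12299 genes tested below, this held for 25.1%, and the reverse held for 27.4%. For the 10 genes the ratio of the group means ran from 1.66 for H2-Ob to 3.55 for H2-Oa. In bulk liver, more cells of a type and more RNA per cell cannot be told apart.

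The study asked whether dietary 7-ketocholesterol (7KC), an oxidised derivative of cholesterol, worsens a psoriasis-like skin inflammation through its action on steatohepatitis, and the libraries described here are those of the liver. All libraries came from whole liver of C57BL/6 mice, given in the methods of the study as males 8 weeks old at the start. The control group (n = 2) was fed for 3 weeks a NASH diet, rich in fat, cholesterol and sucrose with added bile salt. The 7KC group (n = 2) was fed the same kind of diet with 7KC for 3 weeks, so both groups carry the NASH diet and no group on normal chow is compared here. The labels do not say whether each library came from 1 mouse or from a pool, so the spread given here is the spread between libraries. The unit is FPKM, fragments per gene scaled by transcript length and by the number of mapped fragments. It allows genes to be compared within a library, and between libraries it is relative to the whole of each library.

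In the endoplasmic reticulum the alpha and beta chains of class II assemble with the invariant chain, which fills the groove and steers the complex to the endosome. There proteases trim the invariant chain to a short remnant, H2-DM exchanges the remnant for peptide, and H2-DO restrains H2-DM. The transactivator, encoded by Ciita, does not bind DNA itself: it is recruited by factors that sit on a conserved promoter module with an X box and a Y box. In liver, class II is known mainly from dendritic cells, macrophages including Kupffer cells, and B cells, and interferon gamma can induce it in other cells. C57BL/6 mice carry an inactive H2-Ea gene, so H2-Eb1 is transcribed without a partner alpha chain from the same locus.

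The promoter module is shown because it is a sequence feature that the choice of genes did not use. RefSeq promoter windows of build GRCm38.p6, from 250 bases before to 50 bases after each start, were matched by symbol for 7 of the 10 genes. For 4 of them a stretch is written below, 5′ to 3′ on the strand of the gene. The letters GNAAC, a part of the X box, and TGATTGG, the Y box, are in capitals. The stretch of H2-Aa comes from chr17:34287857-34287914 on the minus strand. On the plus strand they come from chr17:34305766-34305822 for H2-Eb1, chr17:34238808-34238862 for H2-Ob and chr17:34145112-34145173 for H2-DMb2. In the GENCODE M21 annotation the stretches of H2-Aa, H2-Eb1 and H2-Ob lie before the start of the gene. That of H2-DMb2 lies within the span of its gene, 34143307 to 34151555.
H2-Aa: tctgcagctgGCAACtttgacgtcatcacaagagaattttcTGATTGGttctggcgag
H2-Eb1: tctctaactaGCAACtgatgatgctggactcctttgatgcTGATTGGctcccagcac
H2-Ob: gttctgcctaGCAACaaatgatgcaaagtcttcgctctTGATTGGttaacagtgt
H2-DMb2: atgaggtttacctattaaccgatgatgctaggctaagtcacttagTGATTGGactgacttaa

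TGATTGG stood on the strand of the gene in 6 of the 7 genes with a window. On either strand it occurred in 7.82% of all 32851 windows. The pair of GNAAC followed 15 to 40 bases later by TGATTGG was found on the strand of the gene in 5 of the 7 genes. On either strand the pair was in 0.715% of all windows, and GNAAC alone was in 84.8% of them. In H2-Aa, H2-DMb1 and H2-Oa the 2 motifs were 26 bases apart, in H2-Eb1 25 and in H2-Ob 23. H2-DMb2 had TGATTGG without the upstream GNAAC, and neither of the 2 windows of H2-DMa held TGATTGG. The letters and the distance were chosen with these sequences in view. Matches in these genes are given on the gene's own strand, whereas the shares of all windows count either strand. On the other strand the windows of these genes held no TGATTGG. Only exact letters were searched, so a missing match says only that they are not in that window. Both windows of H2-DMa lie within the span of its gene, 34119541 to 34139101. Whether the motifs go with the size of the change was not tested.

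Cd74, the invariant chain, was the most abundant of the 10 genes in each library. It measured 909 and 711 FPKM in the controls and 2154 and 2610 FPKM with 7KC. The group means were 810 ± 140 and 2382 ± 323 FPKM (SD, n = 2), a ratio of 2.94 and a log2 change of 1.56 with an SE of 0.21. Among all symbols ordered by level it stood at ranks 94 and 127 in the control libraries and at ranks 36 and 28 in the 7KC libraries.

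The 3 presenting chains followed in the same order in each library. H2-Aa, the alpha chain of the I-A molecule, measured 398 and 322 FPKM in the controls and 829 and 1060 FPKM with 7KC. H2-Ab1, its beta chain, was at 333 and 274 FPKM against 737 and 922 FPKM. H2-Eb1, the beta chain of the I-E molecule, was at 226 and 164 FPKM against 461 and 549 FPKM. The lower 7KC library was above the higher control library for each chain, and control replicate 2 and 7KC replicate 1 were the lower library of their group for all 3 chains and for Cd74. Their log2 changes were 1.39 (SE 0.19), 1.45 (SE 0.18) and 1.38 (SE 0.20), from log2(FPKM + 0.5), a scale that understates the change of low genes. H2-Aa and H2-Ab1 are neighbours in the order of levels whose library values overlapped within each group.

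H2-DMa and H2-DMb1, the alpha chain and a beta chain of the peptide exchanger H2-DM, had the tightest libraries. H2-DMa measured 19.6 and 17.4 FPKM in the controls and 58.9 and 65.9 FPKM with 7KC. H2-DMb1 was at 22.2 and 22.0 FPKM against 57.1 and 59.4 FPKM. The log2 change was 1.73 (SE 0.12) for H2-DMa and 1.38 (SE 0.10) for H2-DMb1. H2-DMb1 was above H2-DMa in both control libraries, and H2-DMa was above H2-DMb1 in both 7KC libraries.

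H2-DMb2, the second beta chain gene of H2-DM, measured 3.85 and 1.13 FPKM in the controls and 5.45 and 6.79 FPKM with 7KC. Its control libraries differed more than those of any other member, and its log2 change of 1.31 had an SE of 0.46. Without control replicate 1 the log2 change was 2.01 and without control replicate 2 it was 0.60. The value corresponded to about 84 and 20 reads in the control libraries, and counting error alone gives 20 reads a relative SD of 22.5%. H2-DMb2 shared 254 of its 1741 windows of 75 bases, the read length, with H2-DMb1, so reads could have passed between these 2 genes. In all, 16.1% of its windows were shared, with 9 other genes. Of the windows of H2-DMb1, 15.8% were shared, all with H2-DMb2, and the other 8 members shared none with any other gene.

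The H2-DO chains, which restrain H2-DM and are known mainly from B cells, were low in every library. H2-Oa, the alpha chain, measured 2.08 and 1.03 FPKM in the controls and 4.95 and 6.12 FPKM with 7KC. H2-Ob, the beta chain, was at 1.06 and 0.673 FPKM against 1.56 and 1.32 FPKM. The gap between the groups was thus wide for H2-Oa and narrow for H2-Ob, and the log2 changes were 1.59 (SE 0.28) and 0.52 (SE 0.22). Without control replicate 2 that of H2-Ob was 0.31. H2-Oa rested on about 31 and 13 reads in the control libraries and H2-Ob on about 44 and 23.

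Ciita, the transactivator, measured 2.97 and 2.29 FPKM in the controls and 7.70 and 10.1 FPKM with 7KC. The group means were 2.63 ± 0.480 and 8.88 ± 1.68 FPKM (SD, n = 2), a ratio of 3.38 and a difference of 1.58 in log2 (SE 0.19). The 7KC libraries were both above the control libraries, with 7KC replicate 2 the highest, as it was for 8 other members.

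**Figure D1:**
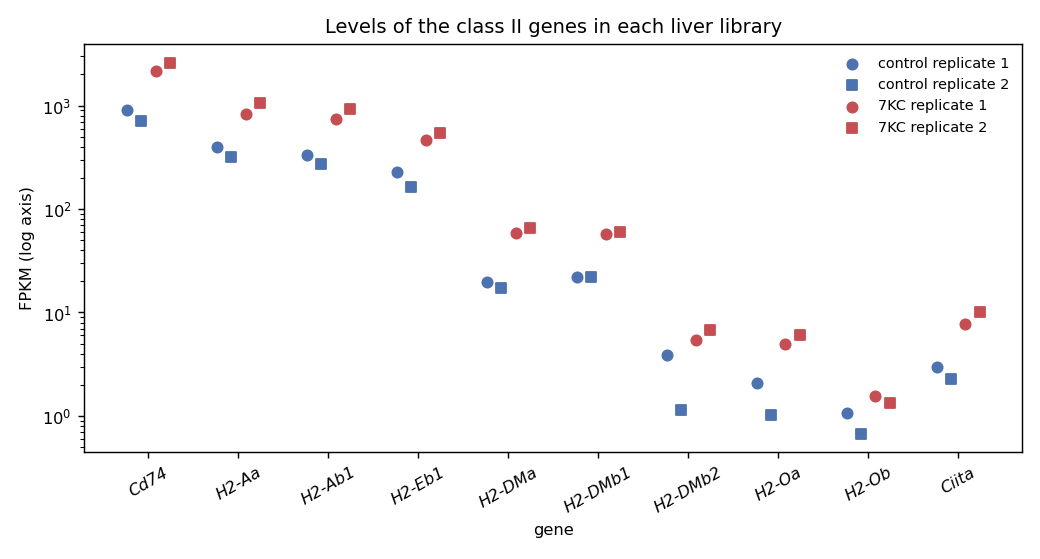
FPKM of the 10 class II genes in each of the 4 liver libraries, on a log axis, with 1 point per library (n = 2 per group). For each gene both 7KC points lie above both control points, from Cd74 at 711 to 2610 FPKM down to H2-Ob at 0.673 to 1.56 FPKM.

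All 10 members averaged 0.5 FPKM or more over the libraries and entered the fit across 12299 genes (limma on log2(FPKM + 0.5), Benjamini-Hochberg adjustment). Of all tested genes, 25.1% had both 7KC libraries above both control libraries and 27.4% had both below. With a log2 change of at least 1 as well, 4.08% of tested genes were higher without overlap, and 9 of the 10 members were, H2-Ob being the exception. At an adjusted p under 0.05, 0.480% of tested genes were called higher and 0.0244% lower. The members called were 2 of 10, H2-DMa and H2-DMb1, both higher. Without control replicate 1 the fit called 7 of the 10, and without any 1 of the other 3 libraries it called 0. Since the members were selected on this contrast, nothing is read from these counts. The median log2 change of the 10 was 1.42, against -0.03 over all tested genes.

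Together the class II chains and Cd74 took a share of all FPKM of 0.272% and 0.219% in the controls and of 0.674% and 0.923% with 7KC. Ratios between members within a library do not depend on the scaling of that library. Cd74 was at 2.28 and 2.21 times the level of H2-Aa in the controls and at 2.60 and 2.46 times with 7KC. The ratio of H2-Eb1 to H2-Ab1 was 0.679 and 0.600 against 0.626 and 0.596, which overlapped between the groups. The log2 difference was 0.17 for the first ratio and -0.07 for the second.

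Among the loading factors, 3 ratios were without overlap between the groups. The ratio of H2-DMa to H2-DMb1 was 0.882 and 0.791 in the controls and 1.03 and 1.11 with 7KC, a log2 difference of 0.35. H2-Ob stood at 0.510 and 0.651 of the level of H2-Oa in the controls and at 0.316 and 0.215 with 7KC, a log2 difference of -1.08. The ratio of H2-Ob to H2-DMb1 was 0.0478 and 0.0306 against 0.0274 and 0.0222, a log2 difference of -0.86. That difference was -0.7 with a pseudocount of 0.1 FPKM and -0.97 with 1 FPKM. The ratios with H2-Ob rest on few reads. The ratio of H2-Oa to H2-DMa was 0.106 and 0.0595 against 0.0839 and 0.0928, and overlapped. Ciita stood at 0.00746 and 0.00710 of the level of H2-Aa against 0.00928 and 0.00950, a log2 difference of 0.19 that depended on the pseudocount, with 0.33 at 0.1 FPKM and 0.06 at 1 FPKM. With 2 libraries against 2, the smallest p an exact permutation test can give is 0.333, so none was run on single ratios.

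**Figure D2:**
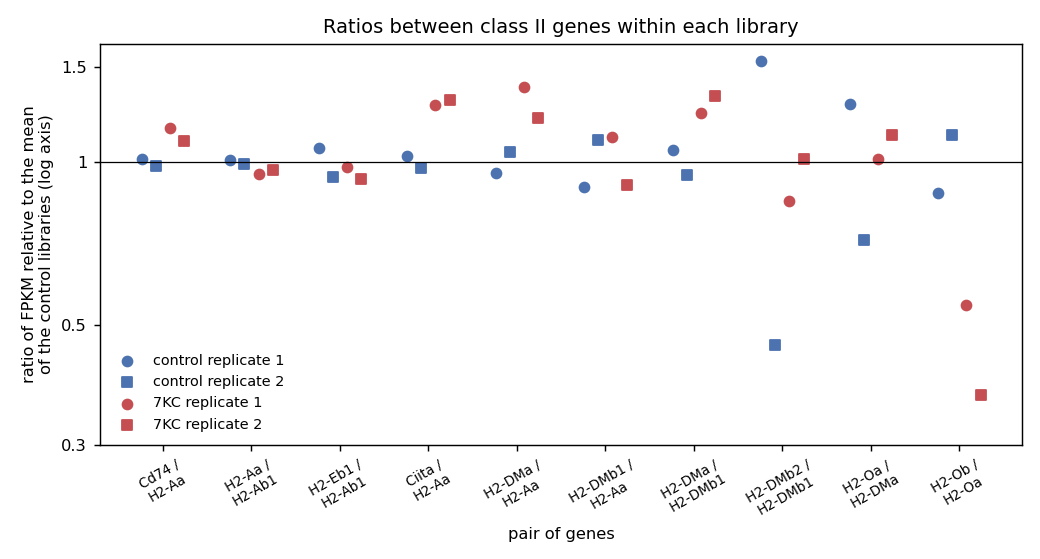
Ratios of FPKM between pairs of class II genes within each library, each divided by the mean ratio of the control libraries, on a log axis with 1 point per library. The ratio of H2-Ob to H2-Oa lies lower in both 7KC libraries and that of H2-DMa to H2-DMb1 higher, while the ratio of H2-Eb1 to H2-Ab1 overlaps between the groups.

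In the GENCODE M21 annotation of mm10, 8 of the 10 members lie on chromosome 17 between 34092340 and 34316674, a stretch of 224 kb. H2-Oa lies at one end, at 34092340 to 34095234 on the plus strand, and H2-Eb1 at the other, at 34305867 to 34316674 on the plus strand. H2-Aa is at 34282744 to 34287823 on the minus strand and H2-Ab1 at 34257689 to 34269419 on the plus strand. Between the ends H2-DMa is at 34119541 to 34139101, H2-DMb2 at 34143307 to 34151555, H2-DMb1 at 34153072 to 34160230 and H2-Ob at 34238903 to 34254414, all on the plus strand. Ciita lies apart, on chromosome 16 at 10480059 to 10528418 on the plus strand. The stretch holds 20 annotated genes, of which 13 were listed and 5 of those were not members.

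These 5 genes were not used to choose the members. Tap1, a subunit of the transporter that feeds peptide to class I, rose from 18.3 and 19.8 FPKM to 53.4 and 44.8 FPKM, by 1.34 on the log2 scale (SE 0.13, limma adjusted p = 0.0336). The other 4 did not pass the threshold. Psmb9, an immunoproteasome subunit, had a log2 change of 1.39 (limma adjusted p = 0.0512) and its relative Psmb8 one of 1.01 (limma adjusted p = 0.0512). Tap2, the partner of Tap1, had one of 0.77 (limma adjusted p = 0.0619). Brd2, a chromatin reader expressed in most cells, was at 22.0 and 19.2 FPKM against 23.1 and 22.2 FPKM, with a difference of 0.14 in log2 (SE 0.12, limma adjusted p = 0.584). Brd2 overlaps the start of H2-DMa on the opposite strand, and whether strand was used in the assignment of reads is not given in the sources used here.

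**Figure D3:**
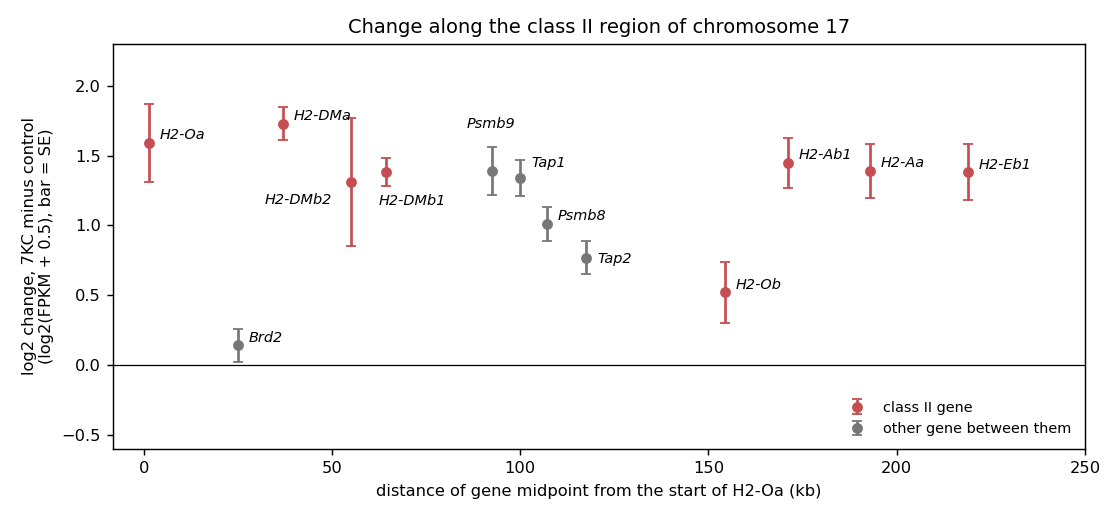
Log2 change, 7KC minus control, of the 13 listed genes of the class II region of chromosome 17, against the distance of each gene's midpoint from the start of H2-Oa in kilobases, with the SE as bars. The 8 class II genes lie between 0.52 and 1.73 and the 5 other genes between 0.14 for Brd2 and 1.39 for Psmb9.

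The other genes of the pathway were taken from lists of general knowledge, chosen with earlier results of these data known. Of 50 named, 47 were listed and 46 tested, and 1 rose (Tap1), 0 fell and 45 did not pass (limma, adjusted p under 0.05). These included the 10 class I genes described below, Tap1 among them. Without the class I genes 36 were tested, 0 passed in limma and the median log2 change was 0.48. Of the 36, 14 were higher and 1 lower at an unadjusted p under 0.05 in limma, and 23 were higher and 2 lower without overlap. At an unadjusted p under 0.05, 22 of the 46 were higher and 1 was lower, beside 12.0% and 5.81% of all tested genes. Both 7KC libraries were above both control libraries for 33 of the 46 and below for 2, beside the 25.1% and 27.4% of all tested genes, and the median log2 change was 0.54. Without control replicate 1 the fit called 9 of them higher, and without any 1 of the other 3 libraries it called 0.

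Of the 9 tested genes of interferon gamma signalling, which switches Ciita on, 0 passed the threshold in limma, and 5 were higher and 0 lower at an unadjusted p under 0.05, where 12.0% and 5.81% of all tested genes were. Ifngr2, a receptor chain, had a log2 change of 0.66 (limma adjusted p = 0.0621). Ifng itself was low, at 0.408 and 0.362 FPKM against 2.99 and 1.38 FPKM (limma adjusted p = 0.104). The list had a median log2 change of 0.57, with 7 of 9 genes higher without overlap and 0 lower, beside 25.1% and 27.4% of all tested genes.

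The factors that bind the class II promoters had a median log2 change of 0.07 over 7 tested genes. None passed the threshold in limma, and 1 was higher and 0 lower at an unadjusted p under 0.05, a share of the list near the 12.0% and 5.81% of all tested genes. Rfx5, which binds the X box, was at 3.18 and 2.78 FPKM against 4.17 and 4.68 FPKM, a difference of 0.50 in log2 (SE 0.14, limma adjusted p = 0.173). Rfxank, its partner, was at 3.97 and 3.36 FPKM against 2.92 and 2.57 FPKM, a difference of -0.36 in log2 (SE 0.15, limma adjusted p = 0.302). Rfxap, the other subunit of this complex, had a log2 change of 0.07 (limma adjusted p = 0.824).

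Endosomal processing genes differed among themselves, and 0 of 9 passed in limma, with 2 higher and 1 lower at an unadjusted p under 0.05 (12.0% and 5.81% of all tested genes). Ifi30, a reductase that opens disulphide bonds of antigens, had a log2 change of 1.23 (limma adjusted p = 0.0617). Ctss, the protease of the last invariant chain cut in many antigen-presenting cells, was at 162 and 135 FPKM against 293 and 459 FPKM (limma adjusted p = 0.0848). Ctsl, a related protease, was at 428 and 562 FPKM against 340 and 303 FPKM, a log2 change of -0.61 (limma adjusted p = 0.19). The median of the list was 0.45.

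The remaining small lists also had 0 calls in limma. March1, which tags surface class II for removal, had a log2 change of 0.90 (limma adjusted p = 0.134), and 1 of the 3 turnover genes was higher at an unadjusted p under 0.05. Cd4, the helper T-cell coreceptor that binds class II, was at 1.45 and 1.37 FPKM against 5.28 and 3.99 FPKM (limma adjusted p = 0.0512), and Lag3, another class II receptor, had a log2 change of 0.82. Both were higher at an unadjusted p under 0.05, as were 2 of the 3 costimulators and 1 of the 2 genes of the receptor role of the invariant chain. Of all tested genes, 12.0% were higher and 5.81% lower at that threshold. Cd40, a costimulator, was at 2.07 and 0.715 FPKM against 7.65 and 6.82 FPKM, a log2 change of 2.13 (limma adjusted p = 0.0704). Cd44, a signalling partner of the invariant chain, had a log2 change of 0.93 (limma adjusted p = 0.0813), and Mif, a ligand of the invariant chain, one of -0.13. Of the other class II loci only H2-Eb2 could be tested, at 0.878 and 0.159 FPKM against 1.03 and 0.772 FPKM, and the pseudogene H2-Ea-ps was listed at 0 in all 4 libraries.

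**Figure D4:**
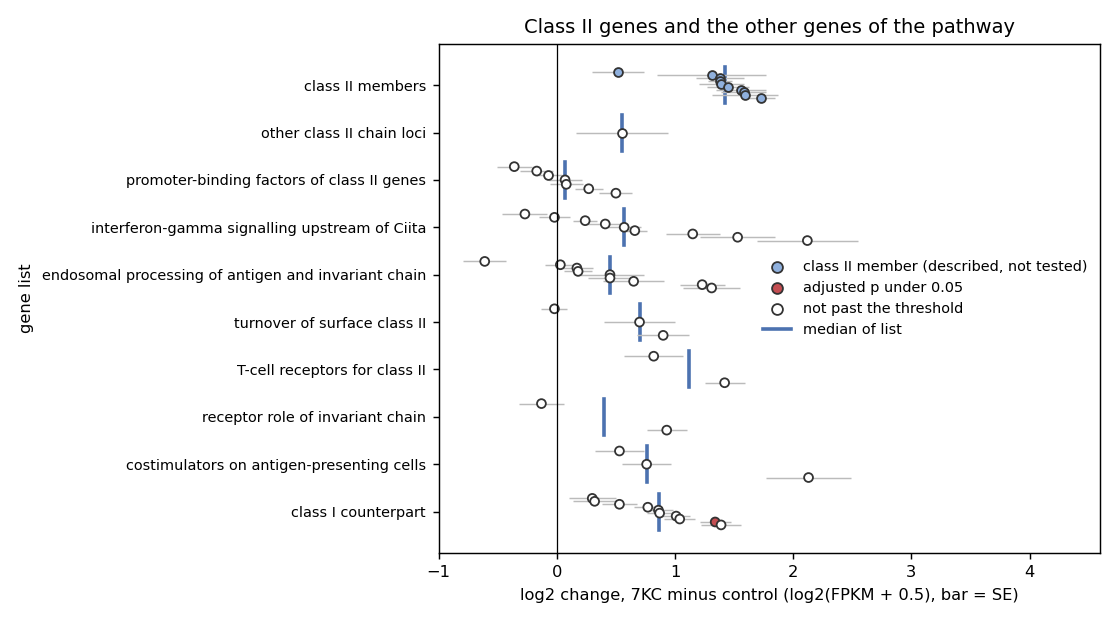
Log2 change, 7KC minus control, of each tested gene in the class II set and the 9 other pathway lists, with the SE as bars and a vertical line at the median of each list. The class II genes have a median of 1.42, the promoter-binding factors one of 0.07, and 1 gene outside the class II set, Tap1 of the class I list, passed the threshold.

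Class I, the counterpart that presents peptides from inside the cell, was higher in both 7KC libraries for each of its 10 tested genes. This held for 25.1% of all tested genes. At an adjusted p under 0.05 in limma 1 of the 10, Tap1, rose, beside 0.480% of all tested genes. At an unadjusted p under 0.05, 8 were higher and 0 lower, beside 12.0% and 5.81% of all tested genes. The median log2 change was 0.87, beside 1.42 for the class II genes, and the difference between these medians was not tested. The presenting chain H2-K1 was at 1433 and 1207 FPKM against 1690 and 1604 FPKM, a log2 change of 0.32. Cd74 was at 0.635 and 0.590 of the level of H2-K1 in the controls and at 1.27 and 1.63 with 7KC. Nlrc5, the class I transactivator, was at 4.88 and 4.53 FPKM against 9.29 and 8.65 FPKM (limma adjusted p = 0.0549), so that Ciita stood at 0.609 and 0.505 of its level in the controls and at 0.828 and 1.16 with 7KC.

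The 5 other genes whose pattern over the 4 libraries was nearest to the mean pattern of the members were Src, Arhgdib, Tifab, Degs2 and Tpx2. Nearness was the Euclidean distance between log2(FPKM + 0.5) profiles centred on each gene's mean, and ran from 0.042 for Src to 0.087 for Tpx2. Src, a tyrosine kinase, was at 2.19 and 1.40 FPKM against 4.91 and 5.88 FPKM. Among the members themselves the distance was smallest for H2-Eb1 (0.026) and largest for H2-Ob (0.916). With 4 libraries such a pattern holds little beyond the difference between the groups.

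Marker genes of cell types that can carry class II, and of other liver cells, were summed in each library, and their part in the class II values was not tested. Of 53 tested genes in 11 lists, 0 passed the threshold in limma, and at an unadjusted p under 0.05 there were 23 higher and 1 lower, beside 12.0% and 5.81% of all tested genes. Counts without overlap in the lists below stand beside 25.1% of all tested genes higher and 27.4% lower. Conventional dendritic cell markers added up to 13.7 and 8.05 in the controls and 21.4 and 23.2 with 7KC, with 5 of 7 tested genes higher without overlap. Clec9a, which marks a dendritic cell subset, was at 1.61 and 1.43 FPKM against 3.29 and 3.62 FPKM, whereas Flt3, a defining receptor of the lineage, overlapped at 1.08 and 0.438 FPKM against 1.03 and 1.13 FPKM. Plasmacytoid dendritic cell markers summed to 3.23 and 3.32 FPKM against 3.44 and 4.63 FPKM, most of it Tcf4, which overlapped between the groups. The other 3, Siglech, Ccr9 and Pacsin1, were higher in both 7KC libraries, at ratios of means of 2.04, 3.75 and 2.48, but under 0.5 FPKM on average and not tested.

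Macrophage and monocyte markers summed to more in both 7KC libraries than in either control library. General macrophage markers summed to 679 and 471 FPKM against 1238 and 1945 FPKM, with 4 of 5 higher without overlap. Markers of monocytes and recruited macrophages summed to 63.2 and 41.8 FPKM against 199 and 170 FPKM, most of it Plac8. Of these, 5 of 6 were higher without overlap, with a median log2 change of 1.63. Kupffer cell markers summed to 306 and 308 FPKM against 352 and 525 FPKM, but with a median log2 change of 0.02 and 3 of 7 higher and 2 lower without overlap. The ratio of H2-Aa to the macrophage gene Mpeg1 was 6.95 and 4.68 against 6.93 and 6.95, and its ratio to Lyz2 was 0.739 and 1.01 against 0.833 and 0.670. Both ratios overlapped between the groups, while that of H2-Aa to Itgam, a myeloid integrin, was 216 and 247 against 170 and 142.

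B-cell marker sums overlapped between the groups. They summed to 8.91 and 3.26 FPKM against 7.77 and 7.54 FPKM, and Pax5, a defining factor of the lineage, was listed at 0 in control replicate 2. That library was also the lowest of the 4 for all 10 members. T-cell markers summed to 10.6 and 6.48 FPKM against 24.3 and 23.0 FPKM, with 5 of 5 higher without overlap. Neutrophil markers summed to 31.5 and 16.7 FPKM against 38.3 and 37.0 FPKM.

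Cells native to the liver tissue gave sums of 112 and 135 FPKM against 113 and 164 FPKM for sinusoidal endothelial markers, and of 3.73 and 3.67 FPKM against 3.04 and 4.66 FPKM for cholangiocyte markers. Hepatocyte markers, which identify the tissue, summed to 66035 and 52665 FPKM against 46733 and 34427 FPKM, with 5 of 7 lower without overlap. The largest part was Alb, which overlapped at 41547 and 25202 FPKM against 26969 and 18988 FPKM. FPKM is relative to the whole library, and its sum ran from 557138 to 685028 over the libraries; the part of this in the class II values was not tested. With the libraries rescaled to the same sum, the median log2 change was 1.62 for the members and 0.16 for all genes.

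**Figure D5:**
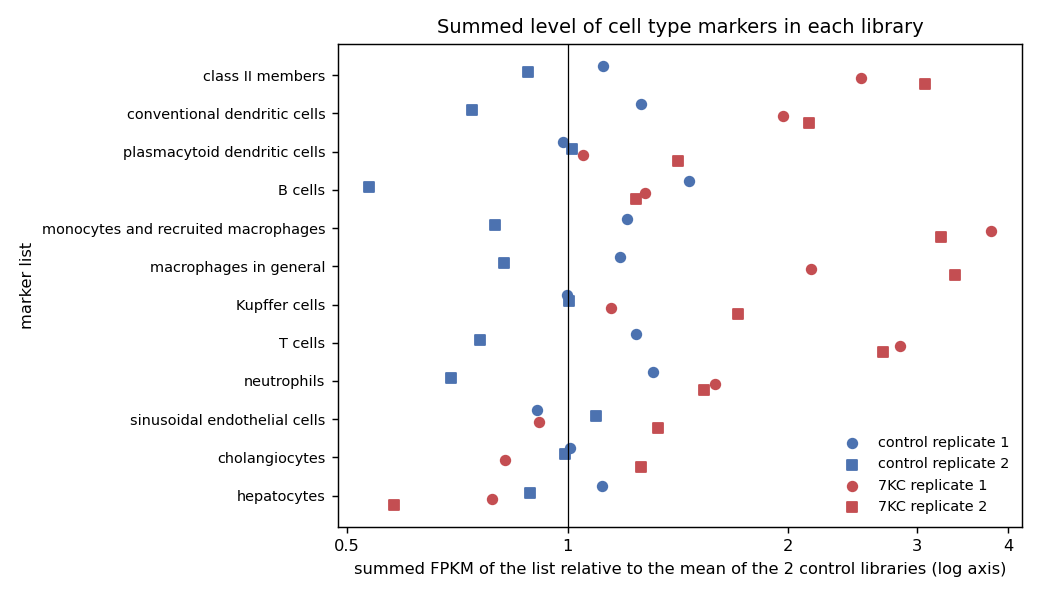
Summed FPKM of the class II genes and of 11 lists of cell type markers in each library, divided by the mean of the control libraries, on a log axis with 1 point per library. Class II genes and dendritic cell, monocyte, macrophage, Kupffer cell, T-cell and neutrophil markers lie higher in both 7KC libraries. B-cell, sinusoidal endothelial and cholangiocyte markers overlap between the groups, and hepatocyte markers lie lower.

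The depth behind these values, estimated from the steps of low FPKM values, was 13500000 to 16900000 mapped reads per library. For Cd74 this corresponded to 11761 to 42993 reads, for Ciita to 182 to 795 reads. The correlation of log2(FPKM + 0.5) between libraries, taken across genes, which are not independent replicates, was between 0.983 and 0.993.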

How the data were processed

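RNA from mouse liver was sequenced in 4 libraries, 2 per group as the labels define them. The authors deposited FPKM values, 1 per symbol and library. By the labels and the study's methods, stranded mRNA libraries were read as single ends of 75 bases. The submitters' processing notes name TopHat2 2.1.1, Bowtie2 2.2.8, SAMtools 0.1.18 and Cuffdiff 2.2.1 on mm10, whereas the methods name other versions of the first 3 and Cufflinks for the FPKM. The gene annotation and the settings for strand and shared reads are not given in the sources used here.

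Values were compared as log2(FPKM + 0.5) over genes averaging 0.5 FPKM or more, with limma 3.58.1 in R 4.3.3 (eBayes with trend, group as the only term), Benjamini-Hochberg adjustment and a threshold of 0.05. The fit was tested on simulated data. With 2 residual degrees of freedom, p-values measure only the spread between these libraries. Depth was estimated with a fragment length of 200 bases, at which 74.9% to 75.8% of values of 1 to 5 reads lay within 0.1 of a whole read, against 20% by spacing alone. Reads are given at the longest coding transcript, and they cover counting error only. Positions came from GENCODE M21.

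The members, the lists and the motifs were chosen with earlier results of these data known. Named were all members, the genes of each pathway list past the threshold or otherwise the 1 or 2 with the smallest p, the 5 nearest in pattern, the listed genes between the outermost members on chromosome 17, and markers at or near 0. H2-K1, Nlrc5, Mif, Brd2, Ifng, Rfxank, Ctsl, Clec9a, Mpeg1, Lyz2, Itgam and Flt3 were set beside them for their role or ratio, some after their values were seen. Adgre1, Plac8 and Alb were added for their part in a marker list after their values were seen. Of the list genes, 4 were not matched to a symbol: H2-Ea, H2-Pa, H2-Pb and Ly6g. A further list gene is not reported here.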

Additional observations from a re-analysis of the deposited data

How the results depend on the processing

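The log2 change of each member kept its sign under all 14 alternatives, between 0.31 and 2.01, and the median of the members ran from 1.27 to 1.67 when 1 library was left out, a fit in which the lone library is assumed to vary like the other group. Counts of calls moved widely. Over all genes, 59 were called higher and 3 lower, against 111 higher with a pseudocount of 1 FPKM, 0 and 1 without a filter, 94 higher with libraries rescaled by the median ratio, 398 and 7 with libraries rescaled to the same sum, 39 and 1 without trend, and 2 to 389 higher and 1 to 52 lower with 1 library left out. Of the other pathway genes, 1 was called higher, against 6 with a pseudocount of 1 FPKM, 0 without a filter, 6 with the median ratio, 15 with the same sum, 5 with quantile normalization, 0 without trend and 0 to 9 with 1 library left out. The members called were 0 to 8. The cause was not tested. With the replicate number as a replicate block, 0 genes were called in either direction and 0 pathway genes. Libraries of the same number did not deviate together (r = -0.141 over 12299 genes, which are not independent). The labels do not say whether such libraries share more than a number, and 1 correlation cannot decide it. A crossed pairing, chosen after seeing the data, called 551 higher and 37 lower, and 13 pathway genes higher. Depth limits H2-Oa, H2-Ob and H2-DMb2, which rested on 13 to 23 reads in control replicate 2.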
